A study of Rattus norvegicus with 8 samples.

Results

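Mitochondrial solute carriers were compared in the neurohypophysis, the posterior or neural lobe of the pituitary, between male Sprague Dawley rats of 35 days, which the labels mark as the control age, and of 125 days. The carriers were taken as the rows of the deposited table whose symbol is Slc25a with a number or Ucp1 to Ucp3, kept where 4 or more of the 8 libraries reached a value of 10. Of 51 such rows, 48 Slc25a and 3 Ucp, 44 passed this minimum, among 17919 genes that did so of 33294 listed. Each age had 4 poly(A)-selected RNA-seq libraries, the labels name no genotype or treatment besides age, and rats of both ages were perfused with buffered saline under isoflurane before the lobe was frozen. No label says whether the numbered samples of an age are different animals. The p-values therefore reflect only how these samples vary, and part of that variation may be technical.

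Metabolites cross the inner mitochondrial membrane through the SLC25 carriers, nuclear-encoded proteins that exchange or co-transport nucleotides, phosphate, organic acids, amino acids, cofactors and metal ions between the cytosol and the matrix. The uncoupling proteins belong to the same family, and UCP1 lets protons back into the matrix to make heat in brown fat. In the neural lobe, carriers serve the axon terminals of vasopressin and oxytocin neurons, which need ATP for secretion and calcium handling, and the glia, or pituicytes, around them. Which cells the carrier mRNA measured here came from cannot be told from libraries of bulk tissue.

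The promoters of 4 carriers whose level differed between the ages are shown first, since they include the glutamate carriers Slc25a22 and Slc25a18, which moved in opposite directions. Each runs from 250 bases before to 50 bases after the annotated start, 5′ to 3′ on the gene's strand, as given by RefSeq for the assembly GRCr8. Capitals mark matches, on either strand, to any of 6 motifs that were searched: the GC box GGGCGG, the core bound by ETS factors such as nuclear respiratory factor 2 (CCGGAAG), the recognition core of nuclear respiratory factor 1 (TGCGCA), the site of oestrogen-related receptors (AAGGTCA), the cyclic AMP response element (TGACGTCA) and the TATA box (TATAAA).
Slc25a22, chr1:205965828-205966127, minus strand: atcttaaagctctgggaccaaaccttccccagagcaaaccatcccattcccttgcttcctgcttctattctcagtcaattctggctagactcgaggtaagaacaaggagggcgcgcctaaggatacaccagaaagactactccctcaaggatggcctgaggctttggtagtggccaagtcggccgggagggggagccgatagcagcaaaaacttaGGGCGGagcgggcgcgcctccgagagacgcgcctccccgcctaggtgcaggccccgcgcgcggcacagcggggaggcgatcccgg
Slc25a18, chr4:155672919-155673218, plus strand: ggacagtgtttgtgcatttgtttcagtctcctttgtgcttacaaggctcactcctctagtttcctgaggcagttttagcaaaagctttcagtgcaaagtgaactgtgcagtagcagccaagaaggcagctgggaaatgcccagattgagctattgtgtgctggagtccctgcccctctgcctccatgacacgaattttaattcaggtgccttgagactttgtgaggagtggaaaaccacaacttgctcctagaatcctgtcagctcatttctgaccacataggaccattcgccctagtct
Slc25a29, chr6:133517148-133517447, minus strand: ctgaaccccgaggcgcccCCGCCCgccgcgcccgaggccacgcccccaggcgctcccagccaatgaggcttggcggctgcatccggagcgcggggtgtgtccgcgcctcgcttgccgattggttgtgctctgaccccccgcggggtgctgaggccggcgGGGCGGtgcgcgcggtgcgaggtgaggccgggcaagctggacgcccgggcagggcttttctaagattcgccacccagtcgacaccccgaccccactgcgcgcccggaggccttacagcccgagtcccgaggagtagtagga
Slc25a14, chrX:132685359-132685658, plus strand: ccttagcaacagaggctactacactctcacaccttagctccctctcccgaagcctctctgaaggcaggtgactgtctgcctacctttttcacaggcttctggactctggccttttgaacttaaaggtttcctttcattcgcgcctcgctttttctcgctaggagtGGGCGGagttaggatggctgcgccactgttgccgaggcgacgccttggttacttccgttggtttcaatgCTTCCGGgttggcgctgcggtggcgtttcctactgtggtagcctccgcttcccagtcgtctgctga

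These windows differed in base composition. The Slc25a29 window had a GC content of 73.7% and 37 CpG dinucleotides, and that of Slc25a22 had 61.0% and 21 CpGs. The Slc25a18 window had 48.0% and 2 CpGs, an observed over expected CpG ratio of 0.12, and none of the 6 motifs. A ratio below 0.4 was found in 7 of 39 carrier promoters (17.9%) and in 25.0% of the 15486 promoters of genes tested. The 39 promoters belonged to the 37 of 44 carriers that the table matched, and their median GC content was 60.3%, against 59.3% in promoters of genes tested.

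The GC box was present in 27 of the 39 carrier promoters (69.2%), in 54.4% of promoters of genes tested and in 33.1% of all 33469 promoters of this length. The ETS core was in 6 (15.4%), including those of Slc25a3, Slc25a4 and Slc25a14, against 13.9% in promoters of genes tested and 8.75% in all. The core of nuclear respiratory factor 1 was in 3 (7.69%), those of Slc25a3, Slc25a12 and Slc25a25, against 11.1% and 7.24%. The cyclic AMP response element was in 2 (5.13%, against 2.66% and 1.83%), the TATA box in 2 (5.13%, against 8.39% and 14.2%) and the receptor site in 1 (2.56%, against 3.44% and 4.61%). A match is a description of these letters and no evidence of binding.

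Recovered reads ran from 28429133 to 58696254 per library. Values are depth-normalized counts, gene read counts divided by 1 size factor per library, and they are compared between libraries for the same gene, since transcript lengths were not used here. Fold changes are log2 differences, 125 minus 35 days, on log2(value + 1), with their standard error (SE), and a gene is called when its Benjamini-Hochberg adjusted p over all genes tested in limma is below 0.05. The lobe's own markers (Rax, Gfap, S100b, Aqp4, Lhx2, Col25a1, Avp and Oxt) were all tested and summed to 30513 to 38726 at 35 days and 17473 to 31200 at 125 days. The intermediate lobe hormone precursor Pomc held 5.65% to 14.3% of all reads. The 5 intermediate lobe markers had a mean log2 level, the measure used as covariate below, of 14.8 to 15.2 at 35 days and 15.3 to 15.7 at 125 days, with no overlap. Their sums did overlap, at 2009425 to 3759826 and 3620313 to 5344437. Of the 35-day libraries, replicate 3 was the highest by sum and the lowest by mean log2 level. The 9 anterior lobe markers summed to 1393790 in 35-day replicate 3, at most 227871 in the other 35-day libraries and 6498 to 50112 at 125 days. That replicate stands apart from the others, so the calls are given with and without it. Log2 changes are otherwise those of all 8 libraries unless a fit without it is named. All 5 markers of dividing cells, 4 of 5 endothelial, 6 of 7 erythroid and 4 of 9 anterior lobe markers were called lower at 125 days, and 2 of 5 intermediate lobe markers higher. Of the 8 neurohypophysis markers, 3 were called lower and 1, Oxt, higher. In bulk tissue, fewer cells of a type and less RNA per cell cannot be told apart. The part of these marker changes in the carrier results was not tested, except where a fit with a marker level is given.

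Carrier mRNA differed little between the ages. Of the 44 carriers, 5 were called higher at 125 days (Slc25a29, Slc25a43, Slc25a22, Slc25a27 and Slc25a14), 1 was called lower (Slc25a18) and 38 were not called. That is 6 of 44, or 13.6%, beside 17.7% of all genes tested, with 8.85% of all genes called higher and 8.87% lower. The 4 libraries of each age did not overlap for 7 carriers that were higher at 125 days and for 1 that was lower, where 13.4% and 11.5% of all genes did so. No carrier changed 2-fold in the fit, as 8.19% of all genes did. The median log2 change was 0.05 over the carriers (range -0.53 to 0.87) and 0.01 over all genes, and the median size of the change, sign ignored, was 0.12 and 0.23.

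**Figure D1:**
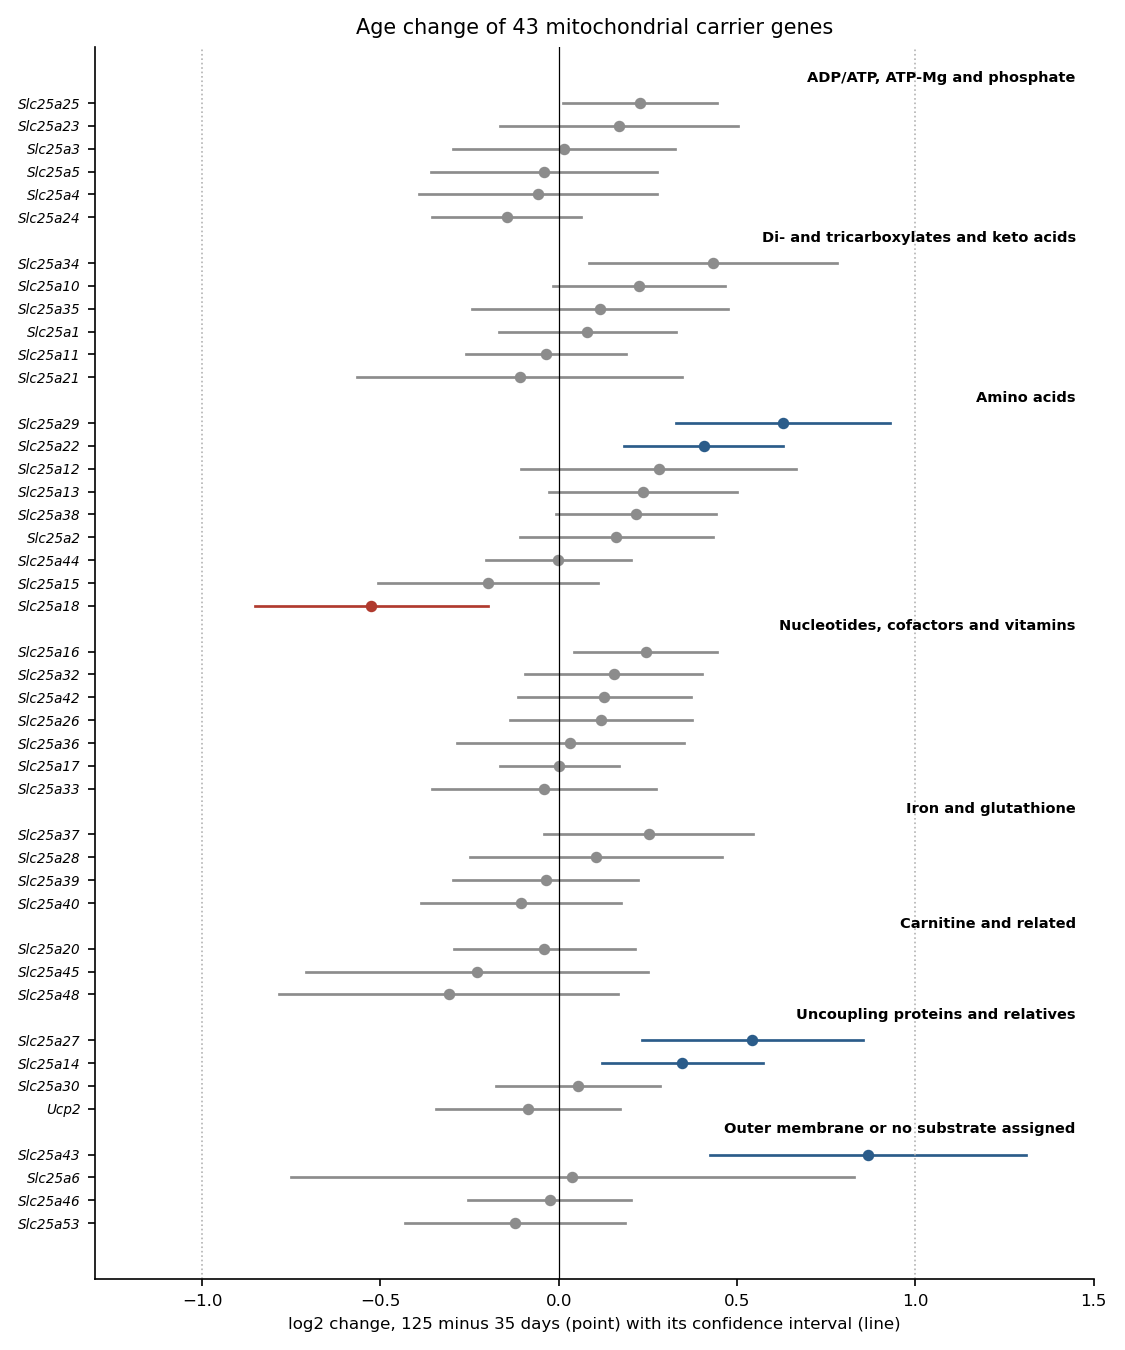
Log2 change of 43 of the 44 carriers (125 minus 35 days, limma, points) with its 95% interval (lines), grouped by what is carried, where blue is called higher, red called lower and grey not called. The points run from -0.53 (Slc25a18) to 0.87 (Slc25a43), and the interval of Slc25a43 is the one that passes the dotted line at 1.

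With the intermediate lobe marker level in the model, none of the 6 calls was kept (adjusted p = 0.260 to 0.810) and 211 genes were called in all; that level and age did not overlap and cannot be told apart. The log2 change was then 0.15 (SE 0.26) for Slc25a27, 0.79 (SE 0.28) for Slc25a29 and 0.71 (SE 0.42) for Slc25a43. It was 0.45 (SE 0.21) for Slc25a22, 0.40 (SE 0.21) for Slc25a14 and -0.75 (SE 0.30) for Slc25a18. With the anterior lobe level, the calls of Slc25a27, Slc25a18 and Slc25a14 were lost (adjusted p = 0.238, 0.132 and 0.133). Their log2 changes were then 0.31 (SE 0.17), -0.53 (SE 0.22) and 0.35 (SE 0.14). Without that level they were 0.54 (SE 0.14), -0.53 (SE 0.15) and 0.35 (SE 0.10). In the 5 groups of carriers with no call, an unadjusted p below 0.05 was found for 3 genes: Slc25a25, Slc25a34 and Slc25a16. In edgeR those groups also had no call. In DESeq2, which called 4196 of all 17919 genes tested, they had Slc25a16 and Slc25a34.

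The intervals given here are those of the main fit, 1 per carrier, and do not cover changes under other models. They may be too narrow if the samples of an age are not different animals. The 95% interval of the log2 change stayed within a 2-fold change in either direction for 43 of 44 carriers (97.7%), against 75.1% of all genes tested, and within 0.5 on the log2 scale for 29 (65.9%, against 36.7%). The spread between libraries was also smaller: the median coefficient of variation was 13.3% over the carriers at 35 days and 8.18% at 125 days, and 18.1% and 9.74% over all genes. Neither intervals nor spread were compared with genes of similar level, so a difference in level may enter both. The 44 carriers summed to 93742 to 97354 depth-normalized counts in the 35-day replicates 1, 2 and 4, 113160 in replicate 3 and 97779 to 102624 at 125 days.

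Amino acid carriers held 3 of the 6 calls, among 9 measured, 2 higher and 1 lower, where 17.7% of all genes were called. Whether calls gather in any group of carriers was not tested. Slc25a29, a carrier of basic amino acids such as arginine and lysine, was at 219, 286, 293 and 331 depth-normalized counts in 35-day replicates 1 to 4 and at 419, 421, 441 and 449.7 at 125 days. Every 125-day library lay above every 35-day library. The mean rose from 282 ± 46.4 to 433 ± 15.2 (SD, n = 4), with a log2 change of 0.63 (SE 0.14, adjusted p = 0.0108). The call was kept when any 1 of the 8 libraries was left out, with a log2 change between 0.51 and 0.71.

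Slc25a22, the main glutamate carrier of brain mitochondria, which brings in glutamate with a proton, held 1573, 1779, 1984 and 1753 depth-normalized counts at 35 days and 2468, 2134, 2242 and 2544 at 125 days. The ages did not overlap, and the highest 35-day value was that of replicate 3. Its mean rose from 1772 ± 168 to 2347 ± 191 (log2 change 0.41, SE 0.10, adjusted p = 0.0202). The call was lost when 35-day replicate 1 (adjusted p = 0.0538) or 2 (0.0525) or 125-day replicate 1 (0.0671) or 4 (0.0739) was left out. On GRCr8 the gene overlaps Cend1, a neuronal gene on the same strand, which rose from 56.7 ± 15.9 to 135 ± 16.8 depth-normalized counts (log2 change 1.27, SE 0.22, adjusted p = 0.00334). How reads in the overlap were assigned is not given in the sources used here, so the values of both genes are uncertain.

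The second glutamate carrier, Slc25a18, moved the other way. At 35 days it held 99.8, 95.1, 89.4 and 96.0 depth-normalized counts, and at 125 days 66.0, 57.7, 69.3 and 70.4. The lowest 35-day library was above the highest 125-day library. The mean fell from 95.0 ± 4.32 to 65.9 ± 5.77 (log2 change -0.53, SE 0.15, adjusted p = 0.0339). These values rest on 55 to 170 reads per library, and the call was lost when any library other than 35-day replicate 3 was left out (adjusted p up to 0.0852), with a log2 change between -0.56 and -0.46.

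**Figure D2:**
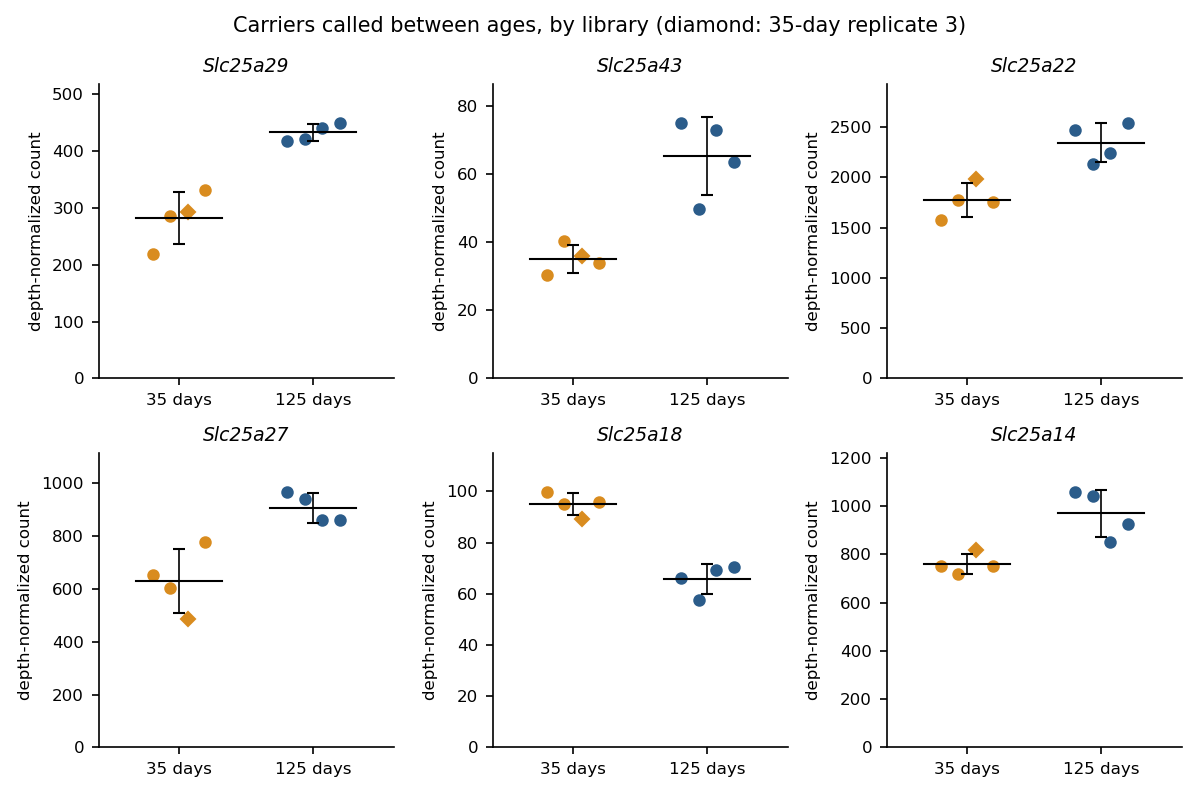
Depth-normalized count of the 6 called carriers in each library (points, orange 35 days, blue 125 days, n = 4 each), with the mean (line) and SD (bar) and with 35-day replicate 3 as a diamond. No panel has overlapping ages, and Slc25a18 is the carrier with lower values at 125 days (57.7 to 70.4, against 89.4 to 99.8).

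The other 6 amino acid carriers were not called. Slc25a12 and Slc25a13, the aspartate/glutamate exchangers of the malate-aspartate shuttle, were higher on the log2 scale by 0.28 (SE 0.17) and 0.24 (SE 0.12), neither past the threshold (adjusted p = 0.304 and 0.206). Slc25a12 was at 2799, 2545, 1581 and 2473 depth-normalized counts at 35 days and 3231, 2404, 2738 and 2844 at 125 days, so that replicate 3 was the lowest of 8. Without it the 35-day mean was 2606 ± 171, beside 2804 ± 341 at 125 days. Slc25a13 was at 491, 485, 648 and 576 against 665, 631, 682 and 595, and there replicate 3 was the highest of the 35-day libraries. Without replicate 3, Slc25a13 was called higher (log2 change 0.32, adjusted p = 0.0271), as was Slc25a38, a carrier of glycine for haem synthesis (0.28, adjusted p = 0.0237). Slc25a2 and Slc25a15, the ornithine carriers, had log2 changes of 0.16 and -0.20, and Slc25a44, a carrier of branched-chain amino acids, one of -0.00.

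Of the uncoupling proteins and their relatives, 2 of the 4 that passed the minimum were called, beside 17.7% of all genes. Slc25a27, also named UCP4 and found mostly in neurons, was at 652, 605, 485 and 778 depth-normalized counts at 35 days and at 967, 939, 859 and 860.3 at 125 days. The ages did not overlap, and replicate 3 was the lowest of the 35-day libraries. The mean rose from 630 ± 121 to 906 ± 55.3 (SD, n = 4; log2 change 0.54, SE 0.14, adjusted p = 0.0241). With the anterior lobe marker level in the model the log2 change was 0.31 (SE 0.17, adjusted p = 0.238), and without replicate 3 it was 0.42 (adjusted p = 0.0101). Leaving out 35-day replicate 2, or each 125-day library in turn, ended the call (adjusted p = 0.0554 to 0.0748).

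Slc25a14, also named UCP5, was at 751, 719, 817 and 752 depth-normalized counts at 35 days and at 1058, 1042, 849.8 and 927 at 125 days. The highest 35-day library, replicate 3, lay just below the lowest 125-day library, also numbered 3. Its mean rose from 760.0 ± 41.1 to 969 ± 98.9 (log2 change 0.35, SE 0.10, adjusted p = 0.0408), a call that was kept in 2 of the 8 fits that left out a library, those without either of these replicates, and lost in the other 6 (adjusted p up to 0.123). Zfp280c, which overlaps Slc25a14 on GRCr8, was not called (706 ± 107 and 593 ± 51.3, adjusted p = 0.228).

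Ucp2, a carrier found in macrophages and many other cells, held 18043, 20868, 24518 and 19518 depth-normalized counts at 35 days and 20608, 18776, 19012 and 19295 at 125 days. The ages overlapped (log2 change -0.09, SE 0.12, adjusted p = 0.657), and replicate 3 was the highest of 8. The 7 macrophage and microglia markers, of which 1 was called higher and 3 lower, summed to 10988 to 12907 at 35 days and 8040 to 12655 at 125 days. Slc25a30, a relative of Slc25a14, had a log2 change of 0.05. Ucp1 and Ucp3 were under the minimum, with 0 to 3 and 0 to 6 reads per library. The 5 adipocyte markers, of which 3 were tested and 1 was called higher, summed to 113 to 198 at 35 days and 171 to 410 at 125 days.

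Slc25a43, whose substrate is not assigned here, had the largest log2 change of the 44 carriers and a low level. Its libraries held 30.4, 40.3, 36.0 and 33.9 depth-normalized counts at 35 days, from 25, 39, 33 and 60 reads, and 75.2, 49.8, 73.1 and 63.5 at 125 days, from 74, 51, 58 and 65 reads. The ages did not overlap. The mean rose from 35.1 ± 4.13 to 65.4 ± 11.6, a log2 change of 0.87 (SE 0.20, adjusted p = 0.0147). The call was lost without 125-day replicate 1 (adjusted p = 0.0520) or 3 (0.0531). In the same group, Slc25a46, an outer membrane protein with a part in mitochondrial shape, had a log2 change of -0.03 (SE 0.10) and Slc25a53 one of -0.12. Slc25a6 was placed here only because no role had been fixed for it. Its log2 change was 0.04, from 6 to 17 reads per library.

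None of the 6 carriers assigned here to ADP/ATP, ATP-Mg and phosphate was called, a group that leaves out Slc25a6. Slc25a4, the ADP/ATP exchanger of heart, muscle and brain, held 10165, 9994, 15226 and 9385 depth-normalized counts at 35 days and 9705, 10874, 11086 and 10570.4 at 125 days. Slc25a5, the exchanger of dividing and many other cells, held 4813, 5034, 7717 and 5154, then 5256, 5499, 5427 and 5473. Slc25a3, which imports phosphate for ATP synthesis, held 12439, 12073, 17529 and 11306, then 13952, 12327, 13227 and 13588. In all 3 genes replicate 3 was the highest library of 8, and the other 35-day libraries overlapped the 125-day ones in Slc25a4 and Slc25a3 and lay below them in Slc25a5. Their log2 changes were -0.06 (SE 0.15), -0.04 (SE 0.14) and 0.01 (SE 0.14). Slc25a4 and Slc25a5 are close copies that can share reads, so their split is uncertain. Markers of striated muscle, where Slc25a4 is abundant, summed to 327 to 440 at 35 days and 389 to 467 at 125 days. Of these 6 markers, 4 were tested and 1, Acta1, was called higher (log2 change 1.19, limma adjusted p = 0.00527).

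The calcium-regulated ATP-Mg/phosphate carriers had log2 changes of 0.17 for Slc25a23 (SE 0.15), -0.15 for Slc25a24 (SE 0.09) and 0.23 for Slc25a25 (SE 0.10, adjusted p = 0.139). Slc25a25 was at 1705 to 2061 depth-normalized counts at 35 days and 2064 to 2517 at 125 days, with no overlap but a gap smaller than the spread within either age. Without replicate 3 it was called higher (log2 change 0.26, adjusted p = 0.0399). Slc25a23 was at 5002, 5734, 3366 and 5168 at 35 days, with replicate 3 the lowest of 8, and at 5202 to 5511 at 125 days.

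None of the 6 carriers of di- and tricarboxylates and keto acids was called. Slc25a1, which exports citrate for lipid synthesis, was at 2262 ± 294 and 2384 ± 221 depth-normalized counts (log2 change 0.08, SE 0.11). Slc25a10, the dicarboxylate carrier, was at 646, 745, 745 and 865 at 35 days and 922, 806, 914 and 854 at 125 days, which overlap (log2 change 0.23, SE 0.11, adjusted p = 0.186). Slc25a11, which exchanges oxoglutarate for malate, was at 3050 ± 403 and 2958 ± 80.7 (log2 change -0.04). Slc25a34 had a log2 change of 0.43 (SE 0.16, adjusted p = 0.0861) that was called without replicate 3 (0.48, adjusted p = 0.0451). Slc25a35 and Slc25a21, the latter a carrier of oxoadipate, had log2 changes of 0.11 and -0.11.

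None of the 8 carriers of nucleotides, cofactors and vitamins was called. Of their log2 changes 7 were positive, some of them near 0, as were 27 of the 44 carriers and 9103 of the 17919 genes tested. Slc25a16 was at 1259, 1289, 1071 and 1136 depth-normalized counts at 35 days and 1406, 1427, 1343 and 1442 at 125 days, which did not overlap (log2 change 0.24, SE 0.09, adjusted p = 0.0912). Slc25a33 and Slc25a36, carriers of pyrimidine nucleotides, had log2 changes of -0.04 and 0.03. Slc25a36 was at 5728, 5785, 3868 and 6061 at 35 days and 4997 to 5788 at 125 days, with replicate 3 the lowest of 8. Slc25a42, the coenzyme A carrier, had a log2 change of 0.13 in all 8 libraries and of 0.22 without replicate 3, where it was called (adjusted p = 0.0411). Slc25a17, a carrier of the peroxisome rather than of mitochondria, was at 2048 ± 59.0 and 2051 ± 62.9 (log2 change 0.00, SE 0.07). Slc25a26, for S-adenosylmethionine, and Slc25a32, for folate and flavin, had log2 changes of 0.12 and 0.15.

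The 4 carriers of iron and glutathione were not called. Slc25a37, mitoferrin 1, which supplies iron for haem in red cell precursors, was at 780, 898, 621 and 895 depth-normalized counts at 35 days and 884, 937, 1055 and 897 at 125 days, with replicate 3 the lowest of 8 (log2 change 0.25, SE 0.13, adjusted p = 0.224). The 7 erythroid markers summed to 8825 to 15030 at 35 days and 2102 to 4926 at 125 days, while the mean of Slc25a37 was 799 ± 130 and then 943 ± 78.0. Slc25a28, mitoferrin 2 of other tissues, was at 1007, 1116, 1681 and 1154, then 1329, 1107, 1411 and 1404, with replicate 3 the highest (log2 change 0.10, SE 0.16). With the anterior lobe marker level in the model, the log2 change of Slc25a28 was 0.51 (SE 0.13, adjusted p = 0.0283). Slc25a39 and Slc25a40, which bring glutathione into mitochondria, had log2 changes of -0.04 (SE 0.12) and -0.11 (SE 0.13).

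The 3 carriers of carnitine and related genes were not called. Slc25a20, which exchanges acylcarnitine for carnitine to feed fatty acid oxidation, was at 2224 ± 351 and 2147 ± 125 depth-normalized counts (log2 change -0.04, SE 0.11). Slc25a45 and Slc25a48 had means under 100 at both ages and log2 changes of -0.23 and -0.31, with SEs of 0.22 and 0.21.

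**Figure D3:**
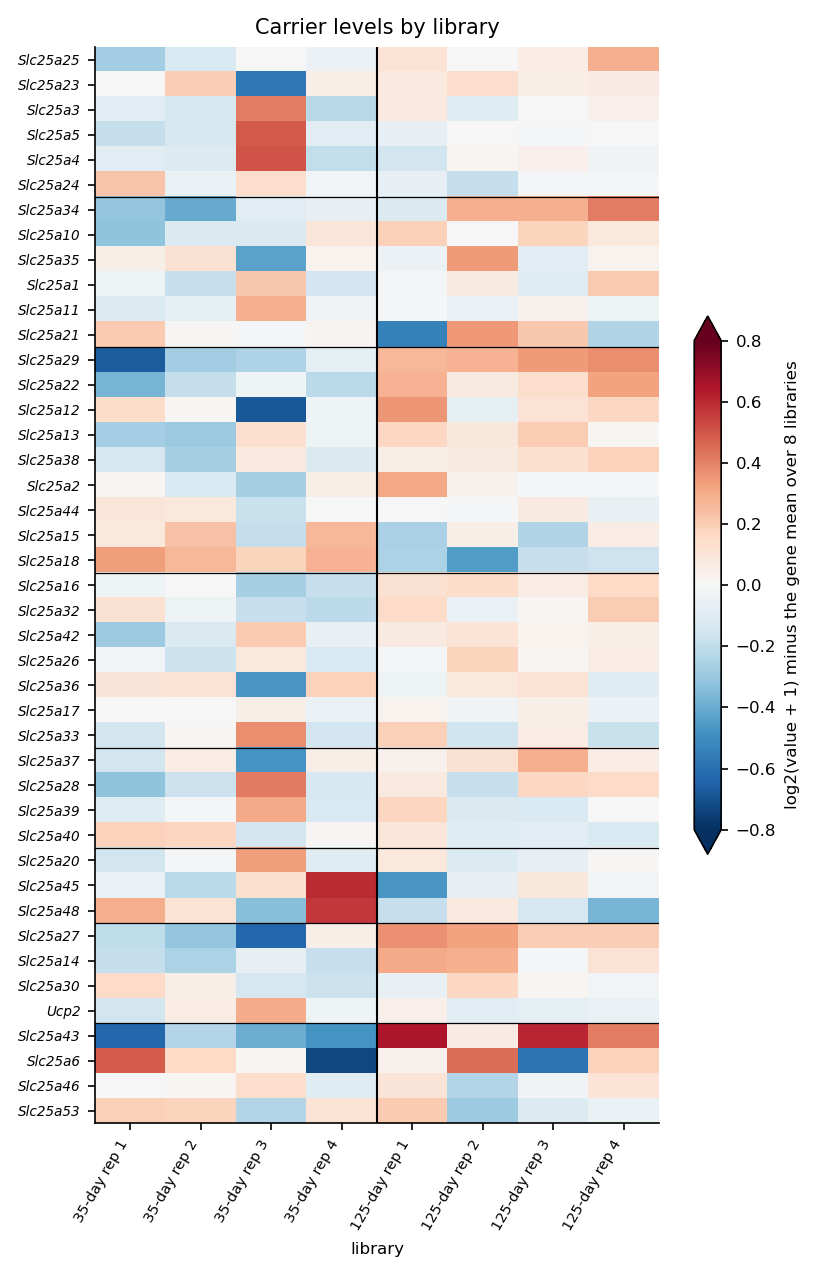
Level of 43 carriers in each library as log2(value + 1) minus the gene's mean over the 8 libraries (colour scale, limited to 0.8 in either direction), with carriers grouped by what is carried and the ages split by the vertical line. The column of 35-day replicate 3 holds strong colours of both signs, such as Slc25a4 and Slc25a5 high and Slc25a12 and Slc25a23 low.

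35-day replicate 3 was the highest of the 8 libraries for 14 carriers (31.8%) and the lowest for 10 (22.7%), where it was so for 29.0% and 29.7% of all genes tested. Relative to the mean of the other 35-day libraries, Slc25a4, Slc25a5 and Slc25a28 were 1.55, 1.54 and 1.54 times as high in it, and Slc25a12, Slc25a23 and Slc25a36 were at 0.61, 0.63 and 0.66 times that mean. Without this library 11 of 44 carriers (25.0%) were called, beside 30.7% of all genes, 10 higher and Slc25a18 lower. The 6 carriers called with it were among them. Slc25a13, Slc25a25, Slc25a34, Slc25a38 and Slc25a42 were the ones added, with log2 changes of 0.22 to 0.48.

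Carriers that share a transport function were compared by their ratio within a library, in 9 pairs. For glutamate, the log2 ratio of Slc25a22 to Slc25a18 was 3.96, 4.21, 4.46 and 4.18 at 35 days and 5.20, 5.19, 4.99 and 5.16 at 125 days. All 4 libraries of 125 days lay above all 4 of 35 days. The mean shift was 0.93 on the log2 scale (4.20 ± 0.20 to 5.13 ± 0.10, SD, n = 4; exact permutation p = 0.0286, two-sided, the smallest that 70 arrangements allow). Adjusted over the 9 pairs the exact p was 0.257, so no pair passed the adjustment, and with 4 against 4 libraries this pair could not have passed it alone. Both genes were called in limma, so the ratio restates those calls.

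The other 8 ratios overlapped between the ages. The ratio of Slc25a4 to Slc25a5 was 0.98 ± 0.09 and 0.96 ± 0.06 on the log2 scale, and replicate 3 lay inside the range of the other libraries. Both ADP/ATP exchangers had their highest value in replicate 3, but they can share reads, so this ratio is uncertain. That of Slc25a10 to Slc25a11 shifted by 0.26 (exact permutation p = 0.0857, adjusted 0.386), and that of Slc25a24 to Slc25a23 by -0.31 (exact permutation p = 0.200, adjusted 0.6). For Slc25a14 and Slc25a27, which both rose, the ratio shifted by -0.20 (exact permutation p = 0.314, adjusted 0.707). The shifts of Slc25a12 to Slc25a13, Slc25a37 to Slc25a28, Slc25a39 to Slc25a40 and Slc25a33 to Slc25a36 ran from -0.07 to 0.15. In 7 of the 9 pairs replicate 3 lay outside the range of the other 7 libraries. For Slc25a12 to Slc25a13 it was at 1.28, against 1.93 to 2.51, and for Slc25a37 to Slc25a28 at -1.44, against -0.64 to -0.24.

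**Figure D4:**
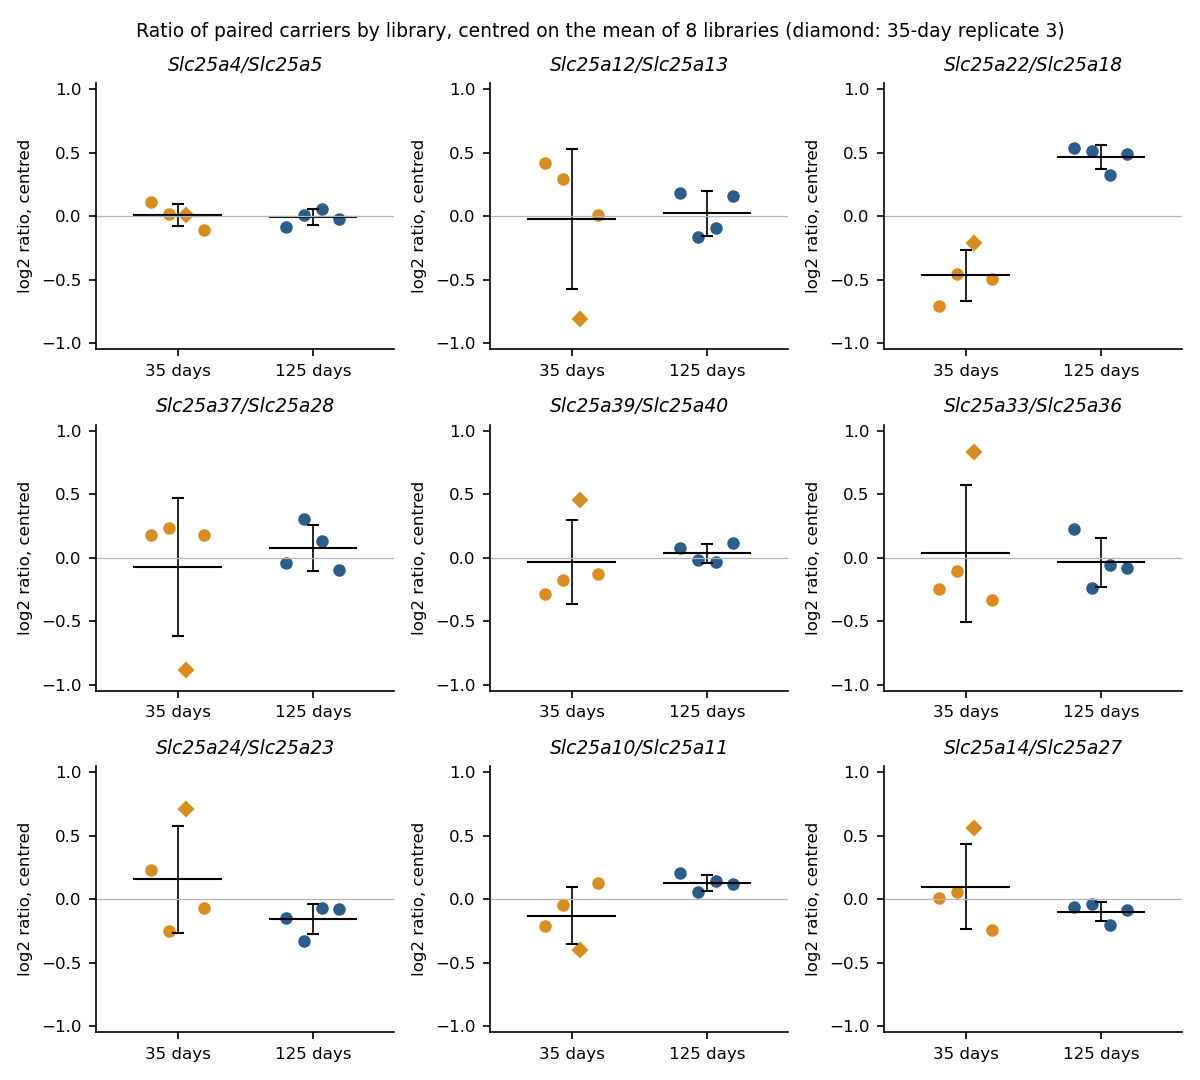
Log2 ratio of 2 carriers within each library for 9 pairs, centred on the mean of the 8 libraries (points, orange 35 days, blue 125 days, n = 4 each), with the mean (line) and SD (bar). Slc25a22/Slc25a18 is the pair whose ages do not overlap, and the diamond, 35-day replicate 3, is the extreme point in 7 panels.

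Carriers reach the inner membrane through the TOM and TIM22 complexes with the help of small chaperones. None of 13 genes of this import route was called (median log2 change -0.06), and the 2 with the largest mean over the 8 libraries, Tomm20 and Tomm70, had log2 changes of -0.06 (SE 0.15) and 0.13 (SE 0.08). There were also 0 at an unadjusted p below 0.05, 0 in edgeR and 0 in DESeq2, and 1 was called higher without replicate 3. Of 22 other mitochondrial transporters, 1 was called, beside 17.7% of all genes: Sfxn5, a sideroflexin of the inner membrane, fell from 723 ± 91.3 to 505 ± 23.3 depth-normalized counts (log2 change -0.51, SE 0.11, adjusted p = 0.0137). The Sfxn5 call was lost without 125-day replicate 4 (adjusted p = 0.0507) and with the intermediate lobe level in the model (log2 change -0.77, adjusted p = 0.170). Of these transporters 2 were called higher and 1 lower without replicate 3, where 30.7% of all genes were called. DESeq2 called 1 higher and 1 lower, beside 2001 and 2195 of all 17919 genes tested.

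Of 16 genes of mitochondrial mass and biogenesis, 3 were called higher and none lower (median log2 change 0.13), beside 8.85% and 8.87% of all genes. The coactivators Ppargc1a and Ppargc1b, which drive transcription of mitochondrial genes, rose from 976 ± 237 to 1789 ± 401 (log2 change 0.88, SE 0.21, adjusted p = 0.0188) and from 72.9 ± 32.9 to 161 ± 24.3 (1.23, SE 0.28, adjusted p = 0.0153). For both, replicate 3 was the lowest 35-day library, at 660.3 and 41.4. With the anterior lobe marker level in the model their adjusted p was 0.118 and 0.144, and with the intermediate lobe level their log2 changes were 0.06 and 0.55 (adjusted p = 0.941 and 0.664). Leaving out 125-day replicate 1 ended the call of Ppargc1a (adjusted p = 0.0627), and leaving out 125-day replicate 3 ended both (0.0614 and 0.0527). Hspa9, the matrix chaperone that pulls in imported proteins, rose from 8071 ± 359 to 10551 ± 420.0 (log2 change 0.39, SE 0.08, adjusted p = 0.0112). That call was lost with the intermediate lobe level (log2 change 0.37, SE 0.17, adjusted p = 0.361). Citrate synthase, Cs, a common measure of mitochondrial mass, had means of 4793 ± 216 and 5135 ± 99.6 and was not called (log2 change 0.10, SE 0.08, adjusted p = 0.411). Without replicate 3, 8 of the 16 were called higher and 1 lower, where 30.7% of all genes were called. DESeq2 called 5 of the 16, beside 4196 of all 17919 genes tested.

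Of 18 enzymes that use the carried metabolites, 3 were called higher and 1 lower (median log2 change 0.04), beside 8.85% and 8.87% of all genes. Gpd1, the cytosolic enzyme of the glycerol phosphate shuttle, rose from 320 ± 52.4 to 541 ± 53.2 (log2 change 0.76, SE 0.14, adjusted p = 0.00459). Got2, the mitochondrial aminotransferase of the malate-aspartate shuttle, rose from 6154 ± 685 to 8658 ± 791 (0.49, SE 0.11, adjusted p = 0.0129). Alas1, the first enzyme of haem synthesis, rose by 0.29 on the log2 scale (adjusted p = 0.0315). The Gpd1 call was kept without any 1 library and the Got2 call in all such fits but that without 125-day replicate 4 (adjusted p = 0.0514), while Alas1 kept its call in 1 of 8. With the anterior lobe level in the model Gpd1 and Alas1 were not called (adjusted p = 0.0561 and 0.133), with log2 changes of 0.53 and 0.28. With the intermediate lobe level Gpd1, Got2 and Alas1 were not called (adjusted p = 0.409, 0.39 and 0.591), with log2 changes of 0.54, 0.47 and 0.19. Without replicate 3, 5 of these enzymes were called higher and 2 lower, where 30.7% of all genes were called.

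**Figure D5:**
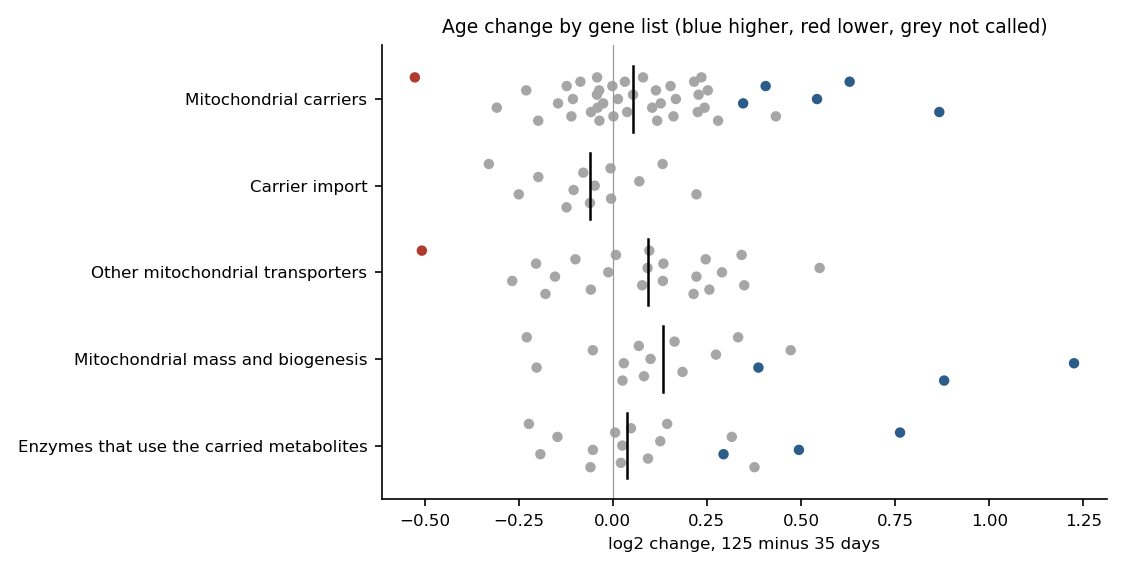
Log2 change (125 minus 35 days, limma) of the mitochondrial carriers and of 4 lists of other mitochondrial genes (points, all tested genes but 1 carrier and 1 enzyme), with the median over all tested genes of the list (black line). The medians lie between -0.06 (carrier import) and 0.13 (mass and biogenesis), and the point farthest right is Ppargc1b at 1.23.

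The 7 rows under the minimum held few reads at either age. Slc25a31, the ADP/ATP exchanger of the testis, had values of 1.03 to 7.30 at 35 days and 5.04 to 13.7 at 125 days. Slc25a52 had 5.04 to 9.14 over all 8 libraries, just under the minimum, and Slc25a6 had 6.77 to 17.0, just over it, with 6 libraries at 10 or more. Slc25a54 had values of up to 8.72 and then of up to 2.93. Slc25a41, Slc25a47, Ucp1 and Ucp3 had at most 3.78 in any library. Slc25a51, a carrier of NAD, was not analysed here.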

How the data were processed

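The unit of the deposited table is a signal per gene and library. Its values show that the authors scaled whole read counts with a size factor for each library, because 100% of them are multiples of what 1 read is worth (tolerance 0.001). For build rn7, the submitters' processing notes name DESeq2 1.34.0, Subread 2.0.1 with featureCounts, SAMtools 1.13, HISAT2 2.2.1 and Trimmomatic 0.39. Which annotation and strand setting were used, and how shared reads were treated, is not given in the sources used here.

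Groups and replicate numbers came from the sample labels. The 17919 genes that reached a value of 10 in 4 or more libraries entered limma 3.58.1 (R 4.3.3), on log2(value + 1) and with its intensity trend, with no term besides age; its two-sided p-values were adjusted over all of them. The added 1 makes changes of genes with few reads look smaller than they are. Depth was 28429133 to 58696254 reads per library. Ratios of paired carriers were compared by exact permutation. Named genes are every called carrier, both members of each pair, Slc25a1, Slc25a3, Slc25a20, Slc25a46, Ucp1 to Ucp3, and of each other list up to 4 called genes or, with none called, the 2 with the largest mean; further carriers complete the account of their group, and Cend1, Zfp280c and Cs were added after their values were seen. Results of 1 carrier and 1 enzyme are not reported here, though both are counted in totals and medians. The members, lists and tests were chosen with earlier results of these data known.

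Alternatives were pseudocounts of 0.5 and 5, no filter, a mean of at least 50, TMM and scaling by total reads, no trend, weights per library, a replicate block, DESeq2 1.42.0 or edgeR 4.0.16 run on the recovered reads, an anterior or intermediate lobe marker level as covariate, and leaving out each library. The test was also run on simulated data. RefSeq promoters and gene neighbours are of GRCr8, not rn7. Figures were drawn with matplotlib 3.10.9.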

Additional observations from a re-analysis of the deposited data

Results flagged for a closer look

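In 6 of the 88 groups of 4 libraries, 44 carriers at 2 ages, 1 library lay far from the other 3; chance gives about 1 in 20 groups. In 35-day replicate 3, Slc25a4 was at 15226 depth-normalized counts (others 9385 to 10165), Slc25a5 at 7717 (others 4813 to 5154) and Slc25a36 at 3868 (others 5728 to 6061). In 125-day replicate 1, Slc25a2 was at 478 (others 382 to 396) and Slc25a40 at 241 (others 206 to 212). In 35-day replicate 1, Slc25a21 was at 134 (others 114 to 117).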

How the results depend on the processing

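The 6 called carriers kept the direction of their change under all 21 alternatives, though many of these could not have reversed it. Their ages did not overlap, so leaving out a library could not turn the sign. The other filters, no trend and the replicate block leave the log2 change itself as it was. The count of carriers called higher, 5, was 3 with scaling by total reads, 3 with the replicate block, 12 with library weights, 7 with DESeq2 and 0 with the intermediate lobe covariate. When a library was left out it ran from 1 (without 125-day replicate 1) to 10 (without 35-day replicate 3), and stayed within 1.5 times of 5 only without 35-day replicate 4, at 4. The count called lower, 1, was 0 with no filter, the replicate block, the anterior lobe covariate and the intermediate lobe covariate, 2 with library weights, and 0 to 1 when a library was left out. Over all genes, 3174 were called, 7892 with library weights and 4196 with DESeq2. The count was 211 with the intermediate lobe covariate and 1894 to 5495 when a library was left out. The intermediate lobe level did not overlap between the ages, so that covariate and age cannot be told apart. For the other changes in these counts the cause was not tested. Scaling by total reads called 1161 genes higher and 1978 lower, against 1585 and 1589.

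The labels do not say whether equal replicate numbers pair the libraries. Same-numbered libraries, each centred on the mean of its age, had correlations of -0.12 to 0.17, too few values to decide it. The block gave 3 carriers higher, 0 lower and 2718 genes called in all. No pair ratio passed the adjustment under other pseudocounts or with medians. Low depth limits Slc25a18 and Slc25a43, and changes of sign in carriers without a call were not counted.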
